A study of Larimichthys crocea with 2 samples.

Results

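The genes described here encode splicing factors and heterogeneous nuclear ribonucleoproteins (hnRNPs) in muscle from Larimichthys crocea, the large yellow croaker, which is farmed for food. They were chosen by protein name, with earlier results of these data known: every gene of the deposited RPKM table whose protein name began with the name of an SR protein, an hnRNP, a splicing factor, a pre-mRNA-splicing or pre-mRNA-processing factor, a U1 to U6 snRNP protein, an Sm or LSm protein, or a polypyrimidine tract-binding, muscleblind, CELF or RBFOX protein. This gave 129 of 22321 genes. The study compared muscle from fish fasted for 21 days with muscle from fish that received no treatment, and it had 1 RNA-seq library for the fasted group and 1 for the control group. The sources used here do not give age, strain, the muscle sampled or the number of fish behind each library. There were no replicates, so no difference below was tested, and values describe these libraries only.

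Introns are cut from pre-mRNA by the spliceosome, which is built anew on each intron from small nuclear ribonucleoproteins (snRNPs), each a small RNA wrapped in a ring of Sm or LSm proteins with a few proteins of its own. SR proteins mostly bind exons and recruit the spliceosome, hnRNPs coat the transcript and often oppose it, and tissue regulators such as the muscleblind, CELF and RBFOX proteins decide which alternative exons are kept. In vertebrate muscle, muscleblind and CELF proteins act on many of the same exons in opposite directions, and in mammals their balance shifts as muscle matures.

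Levels are RPKM as deposited, which are reads scaled to gene length and library size. Each difference is the log2 ratio of fasted over control RPKM with 0.5 RPKM added to both, a step that understates the change of low genes. Genes entered when the mean of both libraries reached 1 RPKM, which 11417 did. Their median ratio was 0.48 as deposited, a 1.40-fold shift towards the fasted library, and ratios below are given relative to it unless stated otherwise. A gene was called higher or lower when its fasted level was at least 2-fold above or below its control level on that scale. By that rule 16.1% of all entering genes were higher and 16.6% were lower. Reads assigned to genes numbered 26593839 in the fasted library and 27519918 in the control library, and 95% exact intervals of read ratios, cover counting error only. Those read ratios have nothing added and are centred on their own median of 0.51, so an RPKM ratio need not lie in the middle of its interval. With a shift of 0.48, genes with a centred ratio between -0.48 and 0 lay above 0 on the scale as deposited. Marker genes of several cell types differed between the libraries: summed RPKM was 230594 in the fasted library against 428513 in the control for 42 skeletal muscle genes, 44.7 in the fasted library against 568 in the control for 13 hemoglobin genes, 151 in the fasted library against 739 in the control for 7 fibroblast genes, 434 in the fasted library against 1885 in the control for 23 keratin genes and 33.0 in the fasted library against 109 in the control for 5 adipocyte genes. Of the entering markers, 17 of 32 muscle, 8 of 8 blood, 5 of 6 fibroblast, 6 of 9 skin and 1 of 3 adipocyte genes were lower in the fasted library, and 2 muscle genes were higher. Genes listed at 0 RPKM in the fasted and in the control library numbered 7 and 6 of the muscle markers, 5 and 1 of the hemoglobins, 1 and 0 of the fibroblast markers, 8 and 6 of the keratins, and 2 and 2 of the adipocyte markers. Their part in the results below was not tested, and in bulk tissue a different share of cells of a type and a different RNA content per cell cannot be told apart.

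Of the 129 genes, 117 entered and 12 lay under the level minimum. In the fasted library, 16 of the 117 were called higher (13.7%, against 16.1% of all genes) and 3 were called lower (2.56%, against 16.6%), while 98 lay between. The share called higher was near that of all genes, and which of them was larger turned with the filter: 19.2% of the splicing genes against 15.8% of all genes with no filter, and 10.3% against 17.7% with a mean of at least 5 RPKM. The share called lower was smaller than that of all genes. The median ratio of the 117 genes was 0.32, with quartiles of -0.12 and 0.64 and a full range from -1.21 to 2.69, and 80 of them (68.4%) lay above 0, against 50.0% of all genes. Together the 129 genes took 0.385% of fasted reads and 0.203% of control reads. These shares are not centred, and the median entering gene was itself 1.40-fold higher in the fasted library on the scale as deposited. On the RPKM scale as deposited, without centring, 37 were at least 2-fold higher (31.6%, against 29.7% of all genes) and 0 were at least 2-fold lower, against 8.88% of all genes. In the authors' deposited table, which held 123 of the 129, 44 were called up (30.3% of all its genes were) and 2 were called down (14.5% of all its genes were). The sources used here do not say how that table's p-values were formed without replicates.

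The roles used here group the genes by protein name, and a name need not give the known function: SFSWAP and the arginine/serine-rich factors 15 and 19, for example, bear the name splicing factor and are known as a regulator and as binders of the polymerase tail. The 61 entering genes named snRNP protein, Sm or LSm protein, splicing factor or pre-mRNA-splicing factor held all 16 higher calls (26.2%, against 16.1% of all genes) and 0 lower ones, and 54 of them had a ratio above 0, with a median of 0.52. The 40 entering genes with hnRNP, PTB, muscleblind, CELF and RBFOX names held the 3 lower calls (7.5%, against 16.6% of all genes) and 0 higher ones. Of these 40, 14 had a ratio above 0, and their median was -0.23, which became 0.25 as deposited. The 16 SR proteins held no call in either direction. Over the 9 other settings of filter, pseudocount and scaling, the medians of the 4 name groups that held the higher calls and of the SR proteins stayed above 0, those of the muscleblind, CELF and RBFOX genes stayed below 0, and those of the hnRNP and PTB genes turned sign in at least 1. The 2 larger groupings were drawn up after the values had been seen and carry no test.

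**Figure D1:**
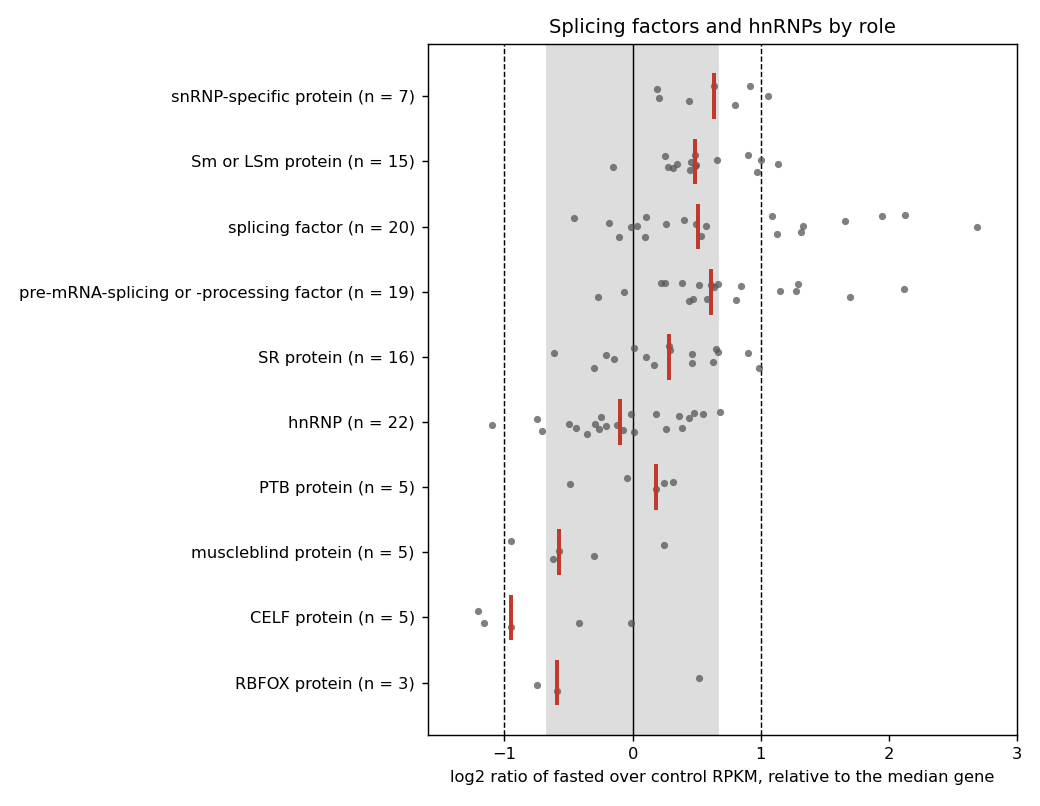
Centred log2 ratios of fasted over control RPKM (horizontal axis) for the 117 entering splicing genes, 1 point per gene, in rows by role with the number of genes. Red bars are medians of the rows, dashed lines mark 2-fold, and the grey band spans the quartiles of all 11417 genes. The medians of the snRNP-specific, Sm or LSm, splicing factor and pre-mRNA-splicing rows lie between 0.49 and 0.64, and those of the muscleblind, CELF and RBFOX rows between -0.95 and -0.57.

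The snRNP proteins lay above the median gene. The 7 snRNP-specific proteins all had ratios above 0, with a median of 0.64, and 1 of them was called higher (14.3%, against 16.1% of all genes). That was U2 snRNP A', a protein of the U2 particle that recognises the branch point, with 22.9 RPKM in the fasted library against 7.55 RPKM in the control (gene23351, log2 ratio 1.06, interval from counting error 0.83 to 1.26, on scaffold NW_011325010.1 at bases 3147 to 12050). Its partner in the same particle, U2 snRNP B'', stood at 14.7 RPKM in the fasted library against 9.01 RPKM in the control, a ratio of 0.19. U1 snRNP 70 kDa, which helps the U1 particle hold the 5' splice site, had 62.1 RPKM in the fasted library against 28.3 RPKM in the control, a ratio of 0.64. The U2AF 35 kDa subunit-related protein 2, whose human counterpart ZRSR2 acts at the 3' splice site of minor introns, had 8.71 RPKM in the fasted library against 2.99 RPKM in the control (gene4743, ratio 0.92, interval 0.71 to 1.27). It lay just under the threshold, and with no filter on low values its ratio was 1.23. The U5 proteins did not pass 2-fold on the main centred scale. The 40 kDa protein had a ratio of 0.80 (gene6871, interval 0.49 to 1.37), and the helicase that unwinds the U4/U6 RNA pair had 0.44. The ratio of the 40 kDa protein was 1.11 with no filter on low values and 1.28 as deposited.

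Sm proteins form the ring on most spliceosomal snRNAs, and LSm proteins form the related ring on U6 RNA. All 7 Sm genes had ratios above 0, with a median of 0.66, and 2 were called higher (28.6%, against 16.1% of all genes). Sm F had 36.0 RPKM in the fasted library against 11.4 RPKM in the control (gene21191, ratio 1.13, interval 0.74 to 1.48). Sm D3 had 10.8 RPKM in the fasted library against 3.55 RPKM in the control, and at a ratio of 1.00 it lay at the threshold (gene18716, interval 0.67 to 1.45). The ratio of Sm D3 was 0.95 with a pseudocount of 1 RPKM and 0.93 with upper quartile scaling, which also put U2 snRNP A' at 0.99. Sm B' was the most abundant of all 129 genes in the fasted library, with 119 RPKM against 43.3 RPKM in the control (gene17181), and at 0.97 it lay just under the threshold. The other 4 Sm genes had ratios of 0.45 to 0.66. The 8 LSm genes held no call, where 16.1% of all genes were higher and 16.6% lower, and had a median of 0.33. They ran from LSm6 at 0.90, with 52.0 RPKM in the fasted library against 19.6 RPKM in the control, to LSm8 at -0.15, with 10.3 RPKM after fasting against 8.12 RPKM in the control. LSm8 marks the nuclear ring on U6, and LSm1, which takes its place in the cytoplasmic ring that acts in mRNA decay, had a ratio of 0.27. LSm7, a subunit of both rings, had 24.6 RPKM in the fasted library against 14.6 RPKM in the control, a ratio of 0.25.

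The proteins named splicing factor held 8 of the 16 higher genes. Their role counts 22 genes, of which 20 entered (40% called higher, against 16.1% of all genes), with a median of 0.51. The SF3A and SF3B subunits, which bind U2 snRNP to the branch point, gave 4 of these calls among 9 genes (44.4%), and all 9 had ratios above 0. SF3A subunit 1 had 65.9 RPKM in the fasted library against 14.6 RPKM in the control (gene17686, scaffold NW_011323410.1, bases 119797 to 126364, ratio 1.66, interval 1.52 to 1.72). SF3B subunit 4 had 23.7 RPKM after fasting against 6.39 RPKM in the control (gene15761, ratio 1.33), SF3B subunit 3 had 17.5 RPKM after fasting against 4.69 RPKM in the control (gene13434, ratio 1.31), and SF3B subunit 5 had 54.7 RPKM after fasting against 18.1 RPKM in the control (gene1500, ratio 1.09). The scaffold subunit of the same complex stayed close to the median gene: SF3B subunit 1, the largest of the complex, had 49.2 RPKM in the fasted library against 34.3 RPKM in the control, a ratio of 0.03 (gene16594, interval -0.10 to 0.03). SF3B subunit 6, which touches the branch point, was among the most abundant of the splicing genes in both libraries. It had 117 RPKM in the fasted library against 59.4 RPKM in the control, a ratio of 0.50.

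The largest ratios belonged to splicing factor names outside those complexes. Splicing factor, arginine/serine-rich 15, whose human counterpart SCAF4 binds the tail of RNA polymerase II, had 39.4 RPKM in the fasted library against 3.94 RPKM in the control (gene8459, scaffold NW_011322662.1, bases 3323 to 13196). These were 3489 fasted reads against 361 control reads, and the ratio was 2.69, or 6.43-fold (interval 2.61 to 2.93). Its copy gene7982 had 5.13 RPKM in the fasted library against 3.24 RPKM in the control, a ratio of 0.11, so the levels of the copies were much closer in the control library than in the fasted library. Splicing factor, arginine/serine-rich 19, known in humans as SCAF1 and likewise a binder of the polymerase tail, had 37.0 RPKM in the fasted library against 5.65 RPKM in the control (gene22370, ratio 2.13, interval 2.04 to 2.28). The suppressor of white-apricot homolog SFSWAP, a regulator with an arginine-serine domain that in flies controls the splicing of its own transcript, had 35.4 RPKM in the fasted library against 6.18 RPKM in the control (gene5039, ratio 1.94, interval 1.82 to 2.10). The counting intervals of these 3 genes lay wholly above the 2-fold threshold.

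U2AF, which marks the 3' splice site, was split between its genes. The 35 kDa subunit reads the AG at the intron end, and its gene16430 had 56.7 RPKM in the fasted library against 18.2 RPKM in the control, a ratio of 1.13 (interval 0.91 to 1.26). A second gene of that name, gene21409, had 4.89 RPKM in the fasted library against 3.67 RPKM in the control, a ratio of -0.11, and the other two copies were listed at 0 RPKM in both libraries. The 2 genes of the 65 kDa subunit, which binds the pyrimidine tract, had ratios of -0.01 (gene14047) and -0.18 (gene17991). Splicing factor 1, which binds the branch point before U2 snRNP arrives, had the lowest ratio of the role at -0.46, with 19.4 RPKM in the fasted library against 19.1 RPKM in the control. The ratio of Splicing factor 1 was 0.02 as deposited.

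Proteins named pre-mRNA-splicing or pre-mRNA-processing factor held the remaining 5 higher genes among 19 (26.3%, against 16.1% of all genes). Of their ratios, 17 lay above 0, and the median was 0.61. ISY1, a member of the Prp19-associated group that stabilises the active spliceosome, had 42.0 RPKM in the fasted library against 6.51 RPKM in the control (gene19892, scaffold NW_011323734.1, bases 27554 to 30635, ratio 2.12, interval 1.88 to 2.40). PRP38A, needed to activate the assembled spliceosome, had 52.8 RPKM in the fasted library against 11.3 RPKM in the control (gene19915, ratio 1.70, interval 1.49 to 1.86). Its relative PRP38B was not called and had a ratio of 0.22. PRP6, which bridges the U5 and U4/U6 particles, had 17.7 RPKM in the fasted library against 4.83 RPKM in the control (gene1910, ratio 1.29). PRP18, which acts at the second catalytic step, had 29.3 RPKM after fasting against 8.32 RPKM in the control (gene2547, ratio 1.27), and SYF2, another Prp19-associated protein, had 109 RPKM after fasting against 35.0 RPKM in the control (gene4328, ratio 1.15). The core of the catalytic centre was not among the calls. PRP8, the scaffold protein around the active site, had 12.4 RPKM in the fasted library against 7.26 RPKM in the control, a ratio of 0.25, and PRP19 itself, a ubiquitin ligase, had 4.48 RPKM after fasting against 3.81 RPKM in the control, a ratio of -0.27. RBM22, which contacts U6 RNA in the active spliceosome, had a ratio of -0.07. With the larger shift of genes with at least 5 RPKM, 6 of the 16 higher genes fell short of 2-fold: U2 snRNP A' at 0.80, Sm F at 0.87, Sm D3 at 0.74, SF3B subunit 5 at 0.83, the U2AF 35 kDa subunit gene16430 at 0.87 and SYF2 at 0.89.

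**Figure D2:**
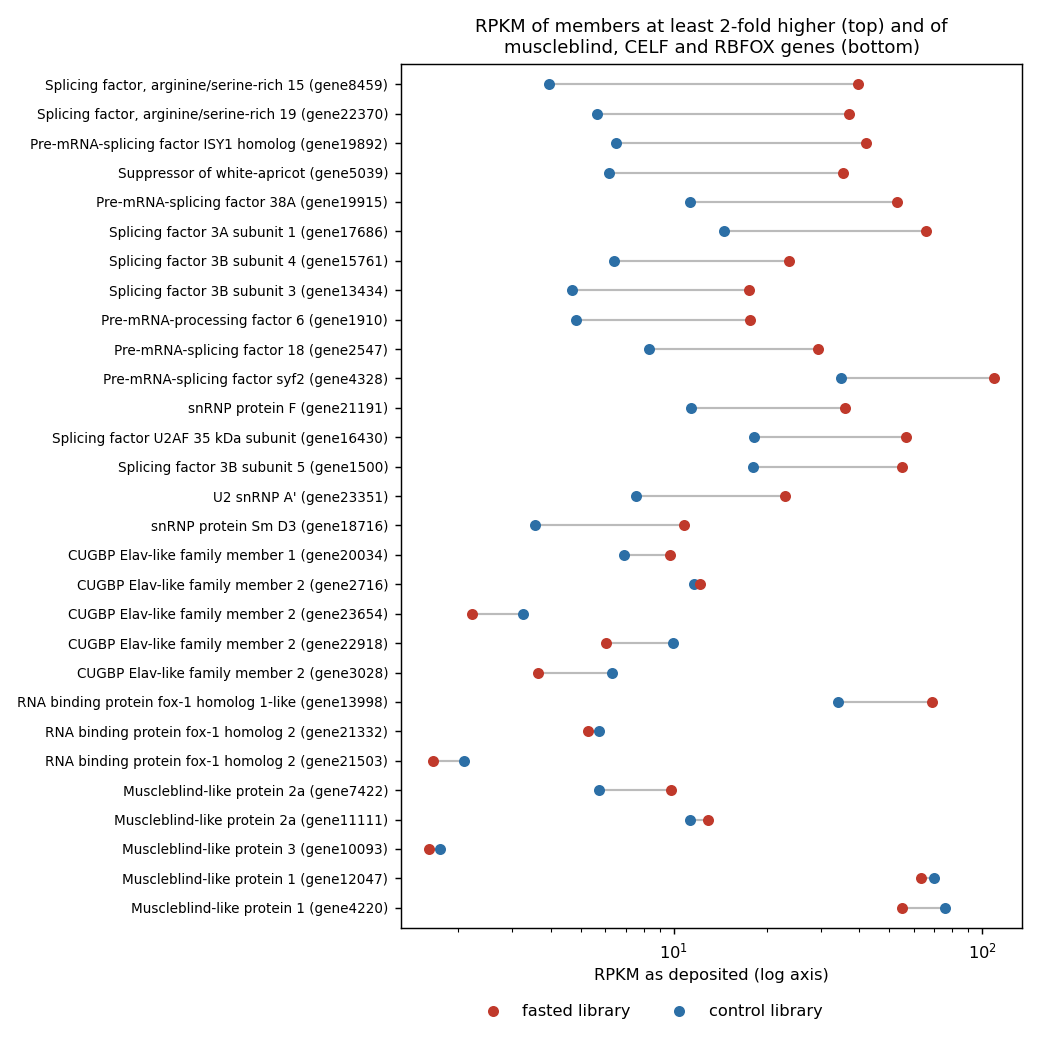
RPKM as deposited in the fasted library (red) and the control library (blue) on a log axis, for the 16 genes called higher (upper rows) and the 13 entering CELF, RBFOX and muscleblind genes (lower rows). The fasted point lies to the right in all 16 upper rows, and in the lower rows it lies to the right in 5 and to the left in 8.

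SR proteins carry arginine-serine repeats and mostly promote the use of exons. All 16 genes entered and none passed 2-fold on the main centred scale, where 16.1% of all genes were higher and 16.6% lower. Their median was 0.28 and 12 ratios lay above 0. As deposited, 5 of the 16 were at least 2-fold higher (31.25%, against 29.7% of all genes) and the median was 0.77. The highest ratio was that of 1 of 2 SRSF2 genes, with 34.9 RPKM in the fasted library against 12.3 RPKM in the control (gene20827, ratio 0.98, interval 0.73 to 1.17). This gene passed 2-fold with the 20 most abundant genes left out (1.00), with TMM scaling factors (1.01) and with no filter on low values (1.29). The other SRSF2 gene was more abundant, with 93.9 RPKM after fasting against 43.2 RPKM in the control and a ratio of 0.63 (gene8051). SRSF7 had 38.1 RPKM in the fasted library against 14.3 RPKM in the control (gene11896, ratio 0.90), and SRSF6 had 14.7 RPKM after fasting against 6.35 RPKM in the control (gene20015, ratio 0.67). With no filter on low values the ratio of SRSF7 was 1.21. At the low end, the 2 SRSF1 genes lay on opposite sides of the median gene. The first had 12.9 RPKM in the fasted library against 14.2 RPKM in the control, a ratio of -0.61 (gene16945, interval -0.94 to -0.44), and the second had 18.4 RPKM after fasting against 9.35 RPKM in the control, a ratio of 0.46 (gene8205). SRSF12 had a ratio of -0.21, and the lower of the 2 SRSF3 genes -0.30 (gene22954). Both SRSF12 and that SRSF3 gene were above 0 as deposited, at 0.27 and 0.18.

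The hnRNPs lay near the median gene. Of 25 genes, 22 entered, 0 were called higher (against 16.1% of all genes) and 1 was called lower (4.55%, against 16.6%). Of the 22 ratios, 9 lay above 0. The median was -0.10, which turned to 0.38 as deposited and 0.25 with no filter on low values. The called gene was 1 of 2 hnRNP L-like genes, at low level, with 0.988 RPKM in the fasted library against 1.78 RPKM in the control (44 fasted reads against 82 control reads, gene20222, ratio -1.10, interval of the read ratio -1.97 to -0.86). Its copy gene21960 lay under the level minimum, with 1.02 RPKM in the fasted library against 0.624 RPKM in the control (46 fasted reads against 29 control reads). The call of gene20222 depended on the scale, since its ratio was -0.62 as deposited, -0.79 with no filter and -0.92 with a pseudocount of 1 RPKM. With genes of 1 name summed, 0 of the splicing genes were called lower (against 16.2% of all genes). The highest ratio was 0.68 for 1 of 2 hnRNP A/B genes, with 55.5 RPKM in the fasted library against 24.4 RPKM in the control (gene878). hnRNP A1, which often represses exons, was the most abundant hnRNP in the fasted library, with 101 RPKM against 51.6 RPKM in the control (gene1614, ratio 0.48), followed by hnRNP A0 with 78.3 RPKM after fasting against 56.4 RPKM in the control (gene12948, ratio -0.01 and 0.47 as deposited). hnRNP H, which binds runs of G, had a ratio of 0.44. hnRNP U, also a protein of the nuclear scaffold, had 7.94 RPKM in the fasted library against 9.65 RPKM in the control, a ratio of -0.75 (gene11526, interval -1.01 to -0.67). hnRNP L, which binds CA-rich RNA, had 15.6 RPKM in the fasted library against 18.4 RPKM in the control, a ratio of -0.71 (gene11895), while its second gene had 13.1 RPKM after fasting against 6.92 RPKM in the control and a ratio of 0.39 (gene15807). hnRNP C, which binds uridine tracts, had a ratio of -0.50 (gene10292).

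Polypyrimidine tract-binding (PTB) proteins, hnRNP relatives that silence exons beside pyrimidine-rich stretches, held no call among 5 genes. Over all genes 16.1% were higher and 16.6% lower, so the lack of a call among 5 genes says little. PTBP3 had 5.88 RPKM in the fasted library against 3.17 RPKM in the control, a ratio of 0.32 (gene20205). PTBP2, known from the mammalian nervous system, had 4.06 RPKM after fasting against 2.38 RPKM in the control, a ratio of 0.18 (gene14930). The 3 PTBP1 genes differed in sign. Their ratios were 0.24 for gene17927, -0.05 for gene4993 and -0.48 for gene22398, which had 6.39 RPKM in the fasted library against 6.40 RPKM in the control. The median of the 5 genes was 0.18, and -0.52 with a minimum of 5 RPKM, which kept 2 of them.

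Muscleblind proteins favour the exon choices of adult muscle in mammals, and the MBNL1 genes were among the most abundant of the splicing genes in the control library. MBNL1 had 54.8 RPKM in the fasted library against 75.9 RPKM in the control for gene4220 (scaffold NW_011322514.1, bases 97477 to 121211, ratio -0.95, interval -1.11 to -0.94). Its second gene, gene12047, had 63.4 RPKM in the fasted library against 69.9 RPKM in the control, a ratio of -0.62. In the control library these were the 2 most abundant of the 129 genes, and in the fasted library neither was among the first 5. Neither passed 2-fold, and the ratios as deposited were -0.47 and -0.14. Whether gene4220 passed 2-fold depended on the setting. Its ratio was -1.01 with a pseudocount of 0.1 RPKM and with recovered reads, and -1.02 with upper quartile scaling. It reached -1.21 with a shift taken from genes of at least 5 RPKM. MBNL2a had 9.78 RPKM in the fasted library against 5.71 RPKM in the control for gene7422, a ratio of 0.25, and 12.9 RPKM after fasting against 11.3 RPKM in the control for gene11111, a ratio of -0.30 that was 0.18 as deposited. MBNL3 was low in both libraries, with 1.61 RPKM in the fasted library against 1.75 RPKM in the control, a ratio of -0.57 (gene10093).

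CELF proteins oppose muscleblind proteins at many exons. Of 10 genes, 5 entered, and all 5 had ratios below 0, with a median of -0.95 and 2 lower calls (40%, against 16.6% of all genes). Both calls were CELF2 genes. The CELF2 genes each lie on a different scaffold. For their RPKM, gene3028, gene22918 and gene23654 had fewer reads than gene2716 (504 fasted reads at 12.2 RPKM), as shorter gene models do. Whether they are separate whole genes or pieces of fewer genes was not examined, so the counts of CELF genes may count 1 gene more than once. The first had 3.64 RPKM in the fasted library against 6.33 RPKM in the control (45 fasted reads against 81 control reads, gene3028, scaffold NW_011322484.1, bases 19742 to 179724, ratio -1.21, interval -1.91 to -0.81). The second had 6.04 RPKM in the fasted library against 9.94 RPKM in the control (94 fasted reads against 160 control reads, gene22918, ratio -1.16, interval -1.66 to -0.90). Without centring their ratios were -0.72 and -0.67, so neither reached 2-fold on the scale as deposited, and with no filter on low values they were -0.90 and -0.85. With genes of 1 name summed, which joins the 4 CELF2 genes, 0 of the splicing genes were called lower (against 16.2% of all genes). A further CELF2 gene lay just inside the threshold at -0.95, with 2.22 RPKM in the fasted library against 3.25 RPKM in the control (gene23654), and the most abundant CELF2 gene had 12.2 RPKM after fasting against 11.6 RPKM in the control, a ratio of -0.42 that was 0.06 as deposited (gene2716). CELF1 had 9.75 RPKM in the fasted library against 6.90 RPKM in the control, a ratio of -0.01 that was 0.47 as deposited (gene20034). The CELF3, CELF4 and CELF5 genes, known mainly from the mammalian brain, were under the level minimum. Among them, 1 CELF3 gene had 0 fasted reads against 13 control reads (gene5445) and was 1 of the 2 genes called down in the authors' deposited table.

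RBFOX proteins bind UGCAUG beside muscle and nerve exons. RBFOX1-like was by far the most abundant, with 68.8 RPKM in the fasted library against 34.2 RPKM in the control (gene13998, 2107 fasted reads against 1083 control reads, ratio 0.52, interval 0.35 to 0.56). The 2 RBFOX2 genes ran the other way. Their levels were 5.29 RPKM in the fasted library against 5.74 RPKM in the control for gene21332, a ratio of -0.59, and 1.66 RPKM after fasting against 2.09 RPKM in the control for gene21503, a ratio of -0.75. RBFOX1 and RBFOX3 lay under the level minimum. RBFOX1 (gene11392) had 1 fasted read against 12 control reads and was the other gene called down in the authors' deposited table. For the 13 entering muscleblind, CELF and RBFOX genes together, 2 ratios lay above 0 and the median was -0.59, or -0.11 as deposited.

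Several protein names were carried by more than 1 gene, and genes of 1 name are called copies here. How alike their sequences are was not examined, and whether the counting divided reads between them was not tested. Of the 117 genes, 43 shared 20 names, and the copies of a name differed by a median of 0.46 on the log2 scale. For 4 names the gap was at least 1: the arginine/serine-rich factor 15 (2.58), the U2AF 35 kDa subunit (1.24), hnRNP L (1.10) and SRSF1 (1.07). For 9 names the copies lay on both sides of 0. No name had 1 copy called higher and another called lower. The sources used here do not say whether counting used strand, so reads of genes that overlap on opposite strands cannot be told apart.

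Genes of the splicing pathway under other names were examined in 5 lists. Factors that assemble snRNPs had the largest median of the 5 lists, 1.32. Of their 11 entering genes, 7 were higher (63.6%, against 16.1% of all genes) and 0 were lower (against 16.6%). Among them, coilin, which organises the Cajal bodies where snRNPs mature, had 7.27 RPKM in the fasted library against 0.705 RPKM in the control (gene19157, ratio 2.21). The survival motor neuron protein 1, which loads the Sm ring, had 38.6 RPKM after fasting against 8.59 RPKM in the control (gene7539, ratio 1.62). Spliceosome proteins outside the naming rule, such as those of the U4/U6 particle, had 8 of 24 higher (33.3%), 0 lower and a median of 0.80. Prp31 had 47.4 RPKM in the fasted library against 8.57 RPKM in the control (gene13991, ratio 1.92) and Prp4 had 32.4 RPKM after fasting against 5.03 RPKM in the control (gene21173, ratio 2.09). Exon junction and mRNA export factors had 4 of 16 higher (25%), 0 lower and a median of 0.59. Kinases of SR proteins had 1 of 9 higher (11.1%, against 16.1% of all genes) and a median of -0.20 that was 0.28 as deposited. The higher one was a CLK4 gene with 59.3 RPKM in the fasted library against 13.5 RPKM in the control (gene874, ratio 1.61).

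Other splicing regulators had 3 of 52 higher (5.77%, against 16.1% of all genes), 2 lower (3.85%, against 16.6%) and a median of 0.04. The pattern for that list also took in RNA-binding proteins whose numbers begin with 4, which are not all known as splicing regulators. RBM24, a splicing regulator of heart and skeletal muscle in mammals, had a gene in each set of calls. Its gene2438 had 416 RPKM in the fasted library against 84.0 RPKM in the control, a ratio of 1.82, and its gene9146 had 4.61 RPKM after fasting against 10.2 RPKM in the control, a ratio of -1.55. At 416 RPKM this RBM24 gene stood above every splicing factor and hnRNP gene described here in the fasted library.

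**Figure D3:**
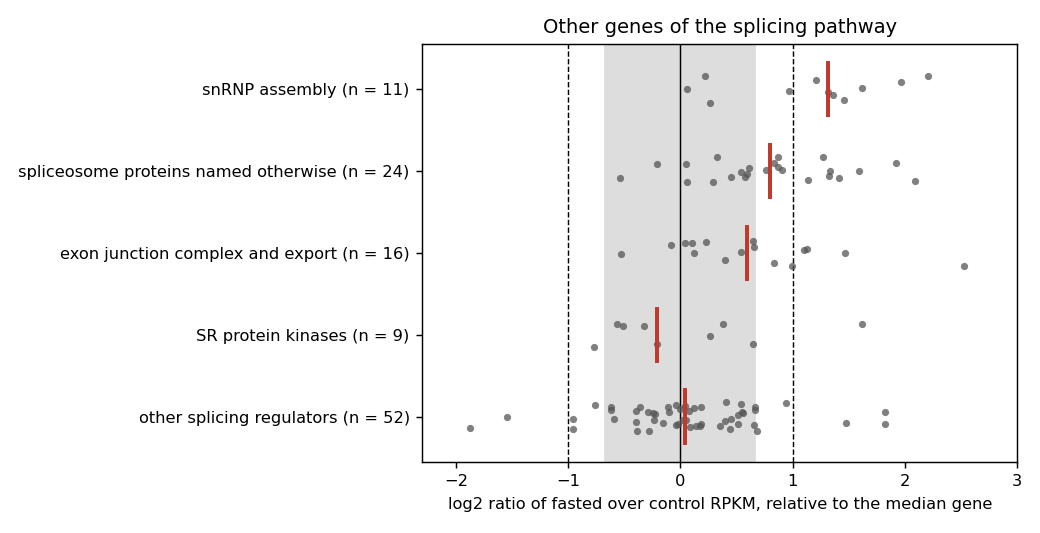
Centred log2 ratios of fasted over control RPKM (horizontal axis) for genes of the splicing pathway with other names, 1 point per entering gene, in rows by list with the number of genes. Red bars are medians of the lists, dashed lines mark 2-fold and the grey band spans the quartiles of all genes. The medians are 1.32 for snRNP assembly, 0.80 for other spliceosome proteins, 0.59 for exon junction and export, -0.20 for SR protein kinases and 0.04 for other regulators.

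Transcripts of splicing proteins are themselves alternatively spliced, and many SR protein and hnRNP genes carry exons whose inclusion or skipping sets how much protein is made. The deposited lists of splicing events gave an FPKM for each form of an event in each library. Events of 1 gene can carry the same FPKM values, and the reads behind them are not given. An event that was not listed for a library may still occur there. Skipped exons inside the splicing genes numbered 36 in each library, of which 29 were the same. Over all genes they numbered 2205 in the fasted library and 2176 in the control, of which 1700 were the same. The share of the skipping form, as a percent of the FPKM of both forms, could be formed in both libraries for 27 exons in 21 genes. It was at least 10 percentage points higher in the fasted library for 2 exons (7.41%, against 25.2% of the 1438 such exons of all genes) and at least 10 points lower for 10 exons (37.0%, against 30.3%). At 20 points the second comparison turned, with 4 exons lower (14.8%, against 22.0% of all such exons). The median difference was 0 points in the splicing genes as in all genes.

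Of the 10 exons skipped less in the fasted library, 3 lay in hnRNP genes, 3 in MBNL2a genes, 3 in factors of the early spliceosome and 1 in SRSF3. In hnRNP A/B (gene7443), an exon of 86 bases at bases 273853 to 273938 of scaffold NW_011322619.1 was skipped in 0% of the fasted FPKM against 53.8% of the control FPKM. The fasted including form had 5.73 FPKM, the value also listed for the retained form of an intron of this gene. The spliced form of that intron had 10.2 FPKM in the fasted library, a value in neither form of the skipping event. In MBNL2a (gene7422), an exon of 95 bases was skipped in 0% after fasting against 35.7% in the control, and in hnRNP M (gene5164), an exon of 102 bases in 0% after fasting against 19.0% in the control. In these 3 exons the skipping form was listed at 0 FPKM in the fasted library. An exon of 160 bases in hnRNP Q (gene6931) had 13.1% in the fasted library against 27.3% in the control, and an exon of 53 bases in the other MBNL2a gene (gene11111) had 35.4% after fasting against 48.1% in the control. The early spliceosome factors were PRP40A, the U2AF 65 kDa subunit and PRP39. An exon of 81 bases in PRP40A, a partner of U1 snRNP, had 17.3% in the fasted library against 39% in the control, and an exon of 36 bases in the U2AF 65 kDa subunit (gene14047) had 47.6% after fasting against 68.5% in the control. An exon of 112 bases in PRP39 (gene4787), also a U1-associated factor, had 38% after fasting against 55.6% in the control. Not all early factors leaned this way. An exon of 87 bases in the other U2AF 65 kDa gene (gene17991) had 30.5% after fasting against 21.2% in the control. An exon of 76 bases in Splicing factor 1 had 30.8% after fasting against 27.2% in the control. Both were differences of less than 10 points.

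The exons skipped more in the fasted library were in CELF1 and hnRNP L. The CELF1 exon of 21 bases was listed with the skipping form alone in the fasted library (100%) against 66.1% in the control. The hnRNP L exon of 33 bases (gene11895) had 39.2% in the fasted library against 16.1% in the control. The fasted values behind it are those of the retained intron of the same gene, and the gene lies beside SRSF7 on scaffold NW_011322867.1.

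Muscleblind genes shared an exon of 54 bases, the length of the mammalian exon that sends the protein to the nucleus. It was listed in 4 genes. The skipping form made up 100% in both libraries in both MBNL1 genes and in the MBNL2a gene11111, while in the other MBNL2a gene (gene7422) it made up 86.4% in the fasted library against 100% in the control. That fasted share rests on 0.755 FPKM of the including form. The fasted sum of both forms, 5.55 FPKM, is also the fasted value of the including form of the 95-base exon of gene7422. An exon of 36 bases in MBNL1 gene12047 was skipped in 65.1% of the fasted FPKM against 64.7% of the control FPKM, and the exon of that length in gene4220 was listed with the skipping form alone in both libraries.

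Long exons in SR protein genes, which in mammals often carry stop codons and limit the protein, were mostly skipped in both libraries. The SRSF7 exon of 563 bases was skipped in 80.9% of the fasted FPKM against 77.8% of the control FPKM. SRSF3 had such an exon in both genes. The exon of 494 bases in gene15482 had 82.1% in the fasted library against 94.1% in the control, and the exon of 442 bases in gene22954 had 64.4% after fasting against 61.6% in the control. Whether these croaker exons carry stop codons was not examined. The PTB genes had an exon of 34 bases, the length of the mammalian exon through which PTB proteins limit each other. Skipping of that exon made up 60.3% in PTBP1 gene22398 and 17.1% in PTBP1 gene4993 on the control list, neither of them on the fasted list, and 14.6% in PTBP2 on the fasted list but not on the control list.

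**Figure D4:**
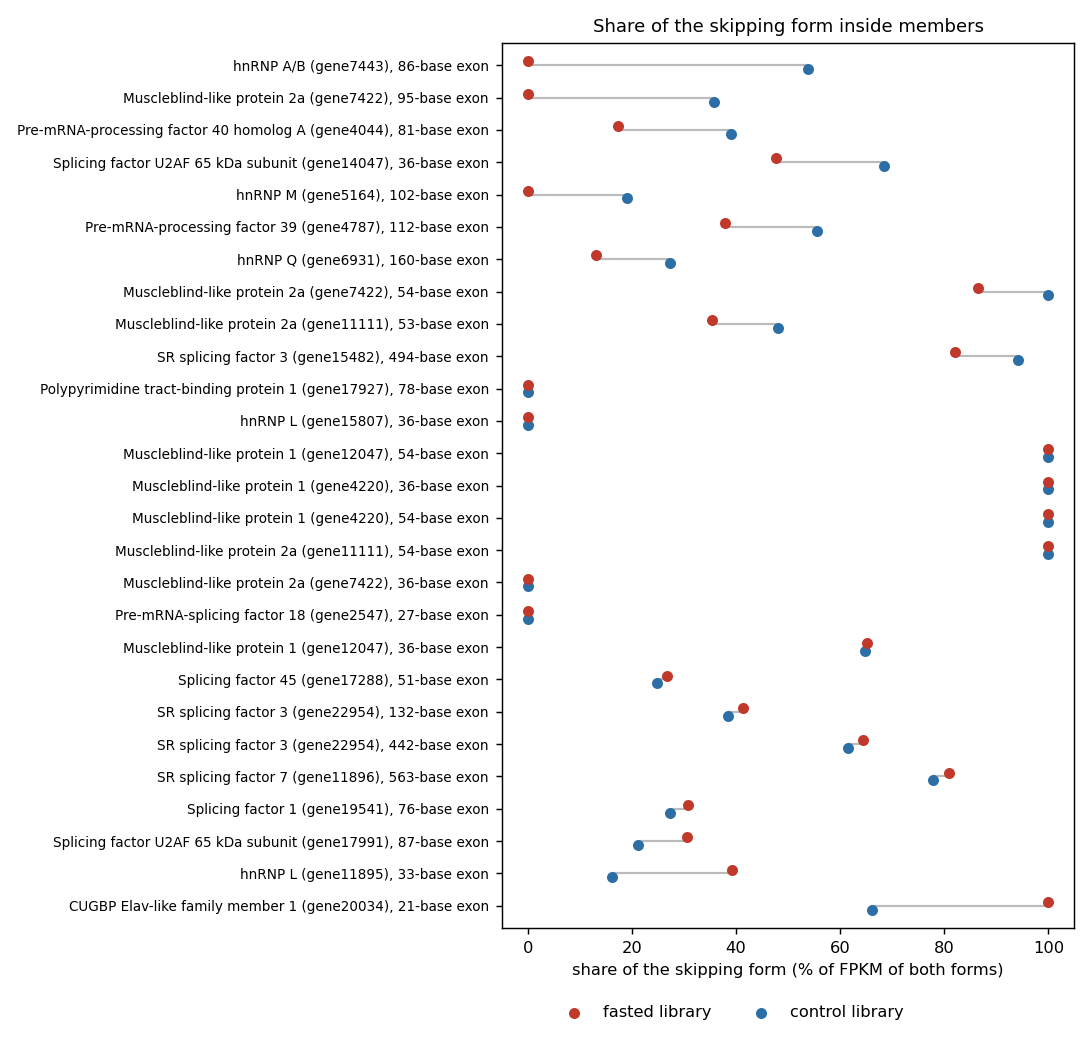
Share of the skipping form (horizontal axis, percent of the FPKM of both forms) for the 27 exons whose share could be formed in both libraries, 1 row per exon with its gene and length, in the fasted library (red) and the control library (blue). The fasted point lies at least 10 points to the left for 10 exons, with the hnRNP A/B exon of 86 bases widest apart at 0% after fasting against 53.8% in the control, and at least 10 points to the right for 2. The fasted value of that hnRNP A/B exon rests on 5.73 FPKM of the including form.

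Retained introns were listed more often inside the splicing genes in the fasted library. There were 18 such events in 14 genes on the fasted list and 4 events in 3 genes on the control list, with 2 events on both. Across all genes the lists held 933 events in the fasted library and 781 in the control, with 231 on both, so most events of all genes were also on 1 list only. The splicing genes made up 1.93% of the fasted events and 0.512% of the control events. The fasted list is from the library in which these genes also had more reads, 102517 in the fasted library against 55955 in the control, and the part of read depth in the number of events listed was not tested. Both libraries listed an intron of 60 bases in SFSWAP, whose homolog in flies keeps introns in its own transcript. Its retained form had 21.2 FPKM in the fasted library against 3.57 FPKM in the control, and the spliced form was listed at 0 in both. An intron of 90 bases in SLU7, a factor of the second catalytic step, was retained in 34.3% of the fasted FPKM against 27.9% of the control FPKM. On the fasted list alone, 7 genes were hnRNPs other than A0, with the retained form at 100% of a low FPKM in hnRNP L-like, 70.1% in hnRNP U, 63.3% in hnRNP M, 39.2% in hnRNP L, 36.1% in hnRNP A/B, 16.7% in hnRNP K and 12.6% in hnRNP C. hnRNP A0 had an intron of 201 bases with the retained form at 31.8 FPKM and the spliced form listed at 0. Sm B', with an intron of 80 bases retained in 34.5%, and PRP40A, with 19.0%, were also on the fasted list alone, as was SF3B subunit 1. In U2 snRNP A' (gene23351), 4 of the 18 fasted events were entries for its 2 neighbouring introns taken singly. An entry for both introns together, from base 9901 to base 10566, was on both lists and is not counted among the 18 and 4 events. Its retained form made up 45.2% of the fasted FPKM against 100% of the control FPKM, where the spliced form was listed at 0. Only PTBP3 had such events, 2 of them, on the control list alone.

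**Figure D5:**
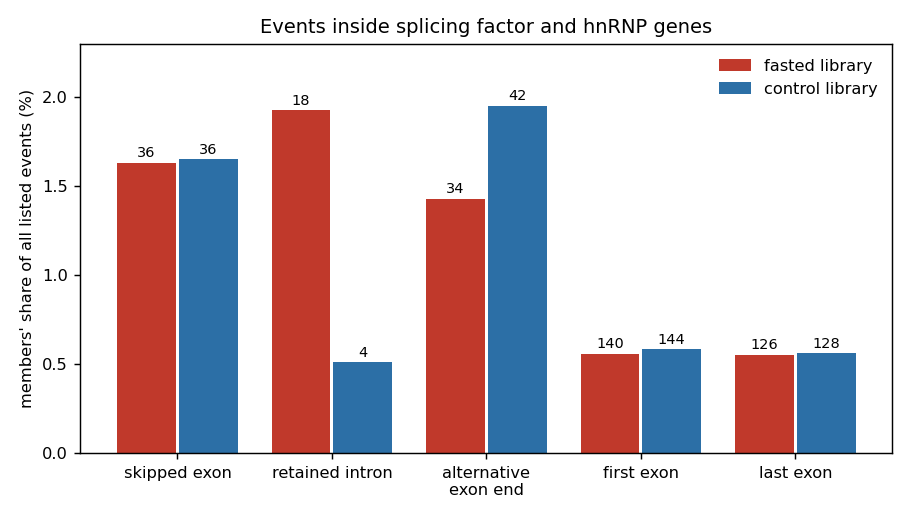
Events inside the splicing genes as a percent of all listed events of each type (vertical axis from 0), in the fasted library (red) and the control library (blue), with the number of events above each bar. Retained introns stand at 18 fasted events against 4 control events, skipped exons at 36 in both, alternative exon ends at 34 fasted against 42 control, first exons at 140 fasted against 144 control and last exons at 126 fasted against 128 control.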

How the data were processed

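Total RNA of muscle was made into TruSeq libraries and sequenced, per the labels' protocols. TopHat, TopHat2 2.0.12, SAMtools 0.1.19 and HTSeq are named, per the submitters' processing notes, with no role given. Genome build, annotation release and use of strand: not given in the sources used here. Positions are 1-based on scaffolds as the files name them.

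The authors deposited RPKM per gene with protein names and positions. Their deposited comparison table holds RPM, a fold change as a ratio, a log2 fold change, a p-value and a call, of which the calls are quoted as theirs. The authors' event lists hold an FPKM per form, per the file headers. Per-gene reads were recovered from the deposited RPM: within 0.1 read, 100% of 16599 fasted and 16725 control values were whole, with 284 and 158 at 0.

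Ratios were log2 of RPKM plus 0.5, for genes whose mean reached 1 RPKM, centred on the median gene since it lay over 0.1 from 0. No test was run, since 1 library per group gives no dispersion. Intervals of read ratios are 95% Clopper-Pearson, conditional on the sum, and cover counting error only. Without molecular identifiers, reads are not independent molecules. Skipping shares were compared at 10 percentage points. The members, roles and lists were chosen with earlier results of these data known. Named genes were the 3 highest and 3 lowest ratios of each role among genes reaching 5 RPKM in either library, the 5 most abundant in each library and every muscleblind, CELF, RBFOX and PTB gene; called genes and their copies and complex partners outside this rule were named after their values were seen, as were the genes of the other lists. Alternatives covered the pseudocount, the filter, 4 scalings, recovered reads, the fold threshold, summed copies and the event thresholds. edgeR 4.0.16 gave the TMM factors only. Python 3.11.15, numpy 2.4.6, pandas 2.3.3 and scipy 1.17.1 were used. The centred ratio and the 2-fold call were tested on simulated reads with counting error only, and the event lists were not simulated. A genome or protein sequences of the files' build were not used here, so no sequence is shown and the planned protein description was left out.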

Additional observations from a re-analysis of the deposited data

How the results depend on the processing

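Of the 117 splicing genes, 16 were higher and 3 lower, with a median of 0.32. With RPKM as deposited these were 37 higher, 0 lower and a median of 0.80. With no filter on low values 24 of 125 were higher (19.2%, against 15.8% of all genes), 1 was lower (0.8%, against 9.12%) and the median was 0.57. That lower gene was RBFOX1 (gene11392), newly admitted, and the 3 lower genes of the main setting lost their call. With a mean of at least 5 RPKM 10 of 97 were higher (10.3%, against 17.7% of all genes) and 3 were lower (3.09%, against 19.4%). The median there was 0.13. These settings changed both the genes entering and the shift subtracted, which was 0.17 and 0.74. The lower genes numbered 5 (4.27%) with a pseudocount of 0.1 RPKM, with upper quartile scaling and with recovered reads. The shares of all genes were 19.0%, 18.1% and 19.1% in these settings. With genes of 1 name summed, 0 were lower (against 16.2% of all genes). At 1.5-fold 33 were higher (28.2%, against 27.5% of all genes) and 11 lower (9.40%, against 27.7%). At 3-fold 6 were higher (5.13%, against 7.40% of all genes) and 0 lower (against 7.81%). At 20 points instead of 10, 4 of 27 exons had a lower skipping share (14.8%, against 22.0% of all exons) in place of 10 (37.0%, against 30.3%). With a pseudocount of 1 RPKM, TMM factors, or the 20 most abundant genes left out, the counts were 16 or 17 higher and 2 or 3 lower. Of 58 named genes, 19 turned sign in at least 1 of 9 settings, 0 of them called. Of the 19 called genes, 6 of the 16 higher and all 3 lower ones lost the call in at least 1 of 9 settings.

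No paired analysis was possible because each group has 1 library and the labels give no replicate numbers. Leaving out a replicate was likewise not possible. Read depth limited the low genes most: 3 reads equal 0.113 RPM in the fasted library and 0.109 RPM in the control, and the event lists give no depth.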

Other observations

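Exon ends inside the splicing genes differed between the lists in several genes, and these values stand as a description with no replicate. The same comparison was not made over all genes. The longer form of an exon of hnRNP A1 (gene1614, 93 against 78 bases) made up 39.2% of the FPKM of both forms in the fasted library and was listed at 0 in the control library. SRSF6 had the longer of 161 and 134 bases at 37.6% in the fasted library, and it was listed at 0 in the control. In SRSF11 (gene2877) the exon of 72 bases, rather than 54, made up 84.5% in the fasted library against 48.8% in the control. The reverse order was seen in PTBP1 (gene22398), where the exon of 143 bases, rather than 125, was listed at 0 in the fasted library against 60.3% in the control. Its control FPKM values are those already given for its exon of 34 bases. In MBNL1 (gene4220) the exon of 216 bases, rather than 171, made up 42.4% after fasting against 100% in the control. Its fasted shorter-form value and its control longer-form value are those of the skipping form of its exons of 36 and 54 bases, so the pair is not a separate measurement. In the U2AF 65 kDa subunit (gene14047) the exon of 157 bases, rather than 139, made up 36.3% after fasting against 62.7% in the control.

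Other pairs of exon ends were close or alike in the 2 libraries. In the pre-mRNA-splicing regulator WTAP (gene7295) the exon of 942 bases, rather than 179, made up 100% in both libraries. In MBNL1 gene4220 the exon of 45 bases, rather than 27, was listed at 0 in both libraries. The longer form made up 80.9% of the fasted FPKM against 77.8% of the control FPKM in SRSF7, 77.7% of the fasted against 71.3% of the control FPKM in MBNL1 gene12047, 63.1% of the fasted against 57.3% of the control FPKM in SRSF2 gene8051, and 12.6% of the fasted against 10.5% of the control FPKM in hnRNP C gene10292. The SRSF7 values are those of its exon of 563 bases, and the fasted hnRNP C values those of its retained intron, so neither is a separate measurement. The longer-form values of MBNL1 gene12047 are likewise those of the skipping form of its exon of 54 bases.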
